A study of Mus musculus with 6 samples.

Results

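Genes that oligodendrocytes switch on as they mature and form myelin were examined in bulk RNA-seq of mouse spinal cord, 9 in all: Mbp, Mobp, Mag, Mog, Cnp, Cldn11, Ugt8a, Mal and Myrf. The members were chosen by gene symbol, and all 9 were present among the 25576 genes that had a value above 0 in at least 1 of the 6 libraries. Levels are in FPKM, fragments scaled to the exon length of a gene and to the number of mapped fragments, so that levels of different genes can be compared per length. Each of the 9 genes was above 0 FPKM in every library, and all 9 were among the 17088 genes that passed a minimum mean of 0.5 FPKM and were tested.

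The libraries came from spinal cord of FVB mice at postnatal day 4. The 3 control libraries carry the genotype mSmn+/-, hSMN22tg/0 and the 3 SMA libraries the genotype mSmn-/-, hSMN22tg/0, so that both groups bear the human SMN2 transgene and the control mice are themselves heterozygous for the Smn knockout and not wild type. SMA mice of this kind are the severe form of the Taiwanese model of spinal muscular atrophy. In them both alleles of mouse Smn carry the knockout in all cells, and the human transgene is the source of functional SMN protein. The methods speak of triplicates of a single sample per group, and the labels do not say whether the libraries came from separate mice. The p-values therefore measure the spread between these libraries, which may be technical. Depth in reads is unknown, and relative depth, estimated from the most frequent ratio of low values, was between 1.00 and 1.16 times that of SMA replicate 1.

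Oligodendrocytes arise from precursor cells that express Pdgfra, pass through a committed precursor stage and then turn on a common program of myelin proteins and lipids. In the spinal cord of mice this program begins around birth, so that the first postnatal days catch it while it is rising. Compact myelin is held together by Mbp on the cytosolic face, Mag sits on its innermost membrane and Mog on its outermost surface, Cldn11 seals its layers with tight junctions, and Ugt8a makes the galactolipids that give myelin its high lipid content. Myrf, a membrane-bound transcription factor that cleaves itself, acts with Sox10 to turn these genes on and is required for myelination. Mbp, Mag, Cnp, Mal and Ugt8a are also expressed by Schwann cells, which myelinate peripheral nerve and can enter a cord sample with the nerve roots.

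Because Myrf and Sox10 act on many of these genes, the bases just upstream of their start sites are shown. Promoter sequences from RefSeq (build GRCm38.p6) were searched for 7 of the 9 members. Those of Mbp and Myrf were not searched, so nothing is said here about motifs in them. The Myrf motif was searched as CTGGCAC or CTGGTAC and the SOX motif as ACAAAG or ACAATG, on both strands, and none of these words is contained in another. Of 32851 promoter windows of 250 bases in the same table, 5.93% held the Myrf motif and 25.2% the SOX motif. Within its window, the Myrf motif was present once for Mag, Mog and Cnp, and the SOX motif once for Mag and Cnp and at 6 positions for Mobp. The windows of Cldn11, Mal and Ugt8a held neither. The 4 promoters with a match are printed 5′ to 3′ with matches to either motif in capitals, ending at the start site farthest upstream in RefSeq or GENCODE M21; this leaves 215 of the 250 bases searched for Cnp and Mobp, with the same matches as the full window. Mag is read from the minus strand at chr7:30914923-30915172, Mog from the minus strand at chr17:37023399-37023648, Cnp from the plus strand at chr11:100574689-100574903 and Mobp from the plus strand at chr9:120149492-120149706. A match describes the letters only.
Mag: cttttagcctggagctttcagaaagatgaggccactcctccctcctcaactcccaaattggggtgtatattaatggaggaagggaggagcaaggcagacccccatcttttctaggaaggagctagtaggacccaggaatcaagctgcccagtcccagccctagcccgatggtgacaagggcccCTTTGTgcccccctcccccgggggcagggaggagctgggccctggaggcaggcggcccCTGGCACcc
Mog: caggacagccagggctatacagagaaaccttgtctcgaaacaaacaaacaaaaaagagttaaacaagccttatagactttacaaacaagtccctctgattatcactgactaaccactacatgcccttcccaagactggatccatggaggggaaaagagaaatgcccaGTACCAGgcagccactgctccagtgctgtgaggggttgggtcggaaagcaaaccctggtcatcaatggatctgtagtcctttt
Cnp: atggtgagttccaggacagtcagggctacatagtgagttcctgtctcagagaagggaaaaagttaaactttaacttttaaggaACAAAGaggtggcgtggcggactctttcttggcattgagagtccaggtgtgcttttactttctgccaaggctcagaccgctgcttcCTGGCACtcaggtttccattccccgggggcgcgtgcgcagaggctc
Mobp: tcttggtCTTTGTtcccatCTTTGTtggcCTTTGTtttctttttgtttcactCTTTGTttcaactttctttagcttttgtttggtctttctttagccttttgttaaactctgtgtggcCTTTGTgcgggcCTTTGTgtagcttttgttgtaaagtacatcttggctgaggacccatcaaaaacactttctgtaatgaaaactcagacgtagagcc

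The libraries were first checked against markers. Here and in what follows, values are listed in the order of replicates 1, 2 and 3. Smn1, the targeted gene, was at 10.4, 8.64 and 11.9 FPKM in the control libraries and 8.48, 9.30 and 11.1 FPKM in the SMA libraries. These values overlap, so the genotype labels have no check in them, and every direction given here rests on the labels. A value for the whole gene does not show whether its RNA is intact, so the overlap does not speak against the labels either. Neuron and astrocyte genes were abundant in each library, with summed levels of 10 neuron genes of 1189, 654 and 1221 FPKM in the control libraries and 1179, 1276 and 1286 FPKM in the SMA libraries. Control replicate 2 was the library with the low neuron value. It also held 14 hepatocyte genes at a summed 30390 FPKM, led by Alb at 15890 FPKM, where the other 5 libraries had between 49.9 and 109 FPKM. Pearson's correlation of log2(FPKM + 1) across genes, not independent of each other, with the other libraries was between 0.836 and 0.849 for control replicate 2 and at least 0.983 among the other 5. In SMA replicate 3, most Schwann cell genes were close to 0, as described with Mal. Some results are therefore also given without 1 of these libraries.

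The 9 genes spanned a wide range of levels in a stable order. By mean over the 6 libraries, Mbp stood at 483 FPKM, Cnp at 91.7, Mobp at 54.0, Mag at 51.4, Cldn11 at 30.0, Ugt8a at 21.5, Myrf at 9.09, Mal at 8.14 and Mog at 4.96. Mbp alone made up between 63.4% and 64.8% of the summed FPKM of the 9 genes in each library. Neighbours in this order kept their places in 6 of 6 libraries except for 3 pairs. Mobp was above Mag in 4 of 6 libraries, Myrf above Mal in 3 of 6 and Mal above Mog in 5 of 6, so the order within these pairs changed between libraries. Differences between members were not tested.

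**Figure D1:**
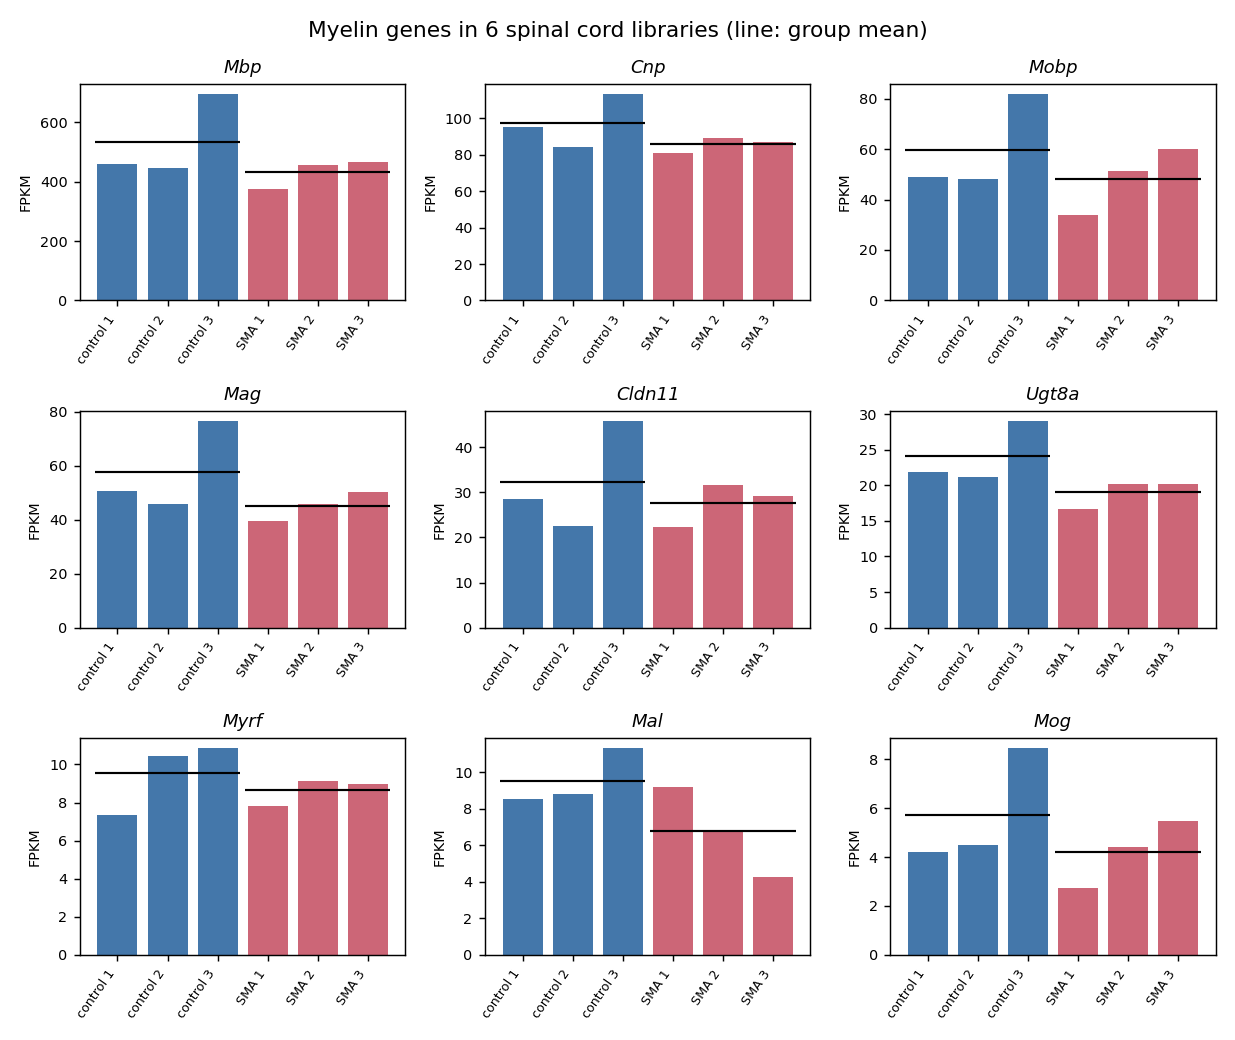
FPKM of the 9 myelin genes in each of the 3 control (blue) and 3 SMA (red) libraries, with the group mean as a black line and a vertical axis per gene that starts at 0. All 9 genes were highest in control replicate 3, and 7 were lowest in SMA replicate 1.

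Mbp, myelin basic protein, compacts the sheath by drawing the cytosolic faces of the membrane together. It lies on chromosome 18 from 82475146 to 82585637 (GRCm38), a span that also gives rise to the Golli transcripts found outside oligodendrocytes, which values for the whole gene cannot separate. Mbp was at 458, 445 and 695 FPKM in the control libraries and 375, 457 and 466 FPKM in the SMA libraries. Control replicate 3 stood above the other 5 libraries, control replicates 1 and 2 lay among the SMA libraries, and the groups overlapped. The means were 533 ± 141 FPKM in control and 433 ± 50.3 FPKM in SMA libraries (SD, n = 3 each). SMA against control gave a log2 fold change, on the scale of log2(FPKM + 1) as all those that follow, of -0.28 (standard error, SE, 0.21, limma adjusted p = 0.683 after Benjamini and Hochberg), and the exact two-sided permutation test gave p = 0.5, where the smallest p possible for 3 libraries against 3 is 0.1. In tissue of this kind, fewer oligodendrocytes and less RNA per oligodendrocyte cannot be told apart.

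Mobp, a small basic protein of compact myelin, lies on chromosome 9 from 120149707 to 120181484. Its values were 49.0, 48.1 and 81.9 FPKM in the control libraries and 33.9, 51.3 and 59.9 FPKM in the SMA libraries. SMA replicates 2 and 3 were above control replicates 1 and 2. Its fold change (log2) was -0.29 (SE 0.28, limma adjusted p = 0.698; exact permutation p = 0.6).

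Mag, the myelin-associated glycoprotein, faces the axon from the innermost membrane and lies on chromosome 7 from 30899176 to 30914873. It was at 50.5, 45.7 and 76.5 FPKM in the control libraries and 39.4, 45.7 and 50.4 FPKM in the SMA libraries. SMA replicates 2 and 3 were close to control replicates 2 and 1, and of the controls only replicate 2 lay within the range of the SMA libraries. With all 6 libraries the log2 fold change was -0.31 (SE 0.21, limma adjusted p = 0.683; exact permutation p = 0.2). Without control replicate 2 it was -0.46 (SE 0.17, limma adjusted p = 0.436) and the groups no longer overlapped. The fold change was -0.09 without control replicate 3 and -0.22 without SMA replicate 1.

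Mog, the glycoprotein of the outermost surface of the sheath and a late gene of the program, had the lowest level of the 9. It lies on chromosome 17 from 37010743 to 37023398 and was at 4.20, 4.48 and 8.46 FPKM in the control libraries and 2.71, 4.40 and 5.49 FPKM in the SMA libraries. Its highest library was 3.12 times its lowest, the widest range among the 9 genes, and the groups overlapped. For Mog the log2 fold change came to -0.35 (SE 0.30, limma adjusted p = 0.683; exact permutation p = 0.5).

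Cnp, an enzyme of uncompacted myelin that keeps cytoplasmic channels open and appears early in the lineage, was the least variable of the 9. Its values were 95.1, 84.4 and 113 FPKM in the control libraries and 81.0, 89.3 and 86.9 FPKM in the SMA libraries. Control replicate 2 lay between the SMA libraries, while control replicates 1 and 3 were above all of them. Over all libraries Cnp differed by a log2 fold change of -0.18 (SE 0.13, limma adjusted p = 0.683, exact permutation p = 0.3). The fold change was -0.27 without control replicate 2 (SE 0.08, limma adjusted p = 0.366), where the groups did not overlap. Without control replicate 3 it was -0.06, and without SMA replicate 1 it was -0.14. Cnp lies on chromosome 11 from 100574904 to 100591729 and overlaps Dnajc7 there, while its locus in the deposited values runs on to 100704271 and is shared with Dnajc7, Zfp385c, Dhx58, Nkiras2 and Dhx58os, and whether the quantification used strand is not given in the sources used here, so fragments of the overlap could count for either gene.

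Cldn11, the claudin of the tight junctions between myelin layers, lies on chromosome 3 from 31149920 to 31164324. It was at 28.5, 22.6 and 45.8 FPKM in the control libraries and 22.3, 31.6 and 29.2 FPKM in the SMA libraries. Control replicate 2 was as low as SMA replicate 1, and SMA replicates 2 and 3 exceeded control replicates 1 and 2. Cldn11 had a log2 fold change of -0.17 (SE 0.26, limma adjusted p = 0.801; exact permutation p = 0.8), which turned to 0.11 without control replicate 3.

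Ugt8a, which joins galactose to ceramide in the first committed step to galactocerebroside and sulfatide, lies on chromosome 3 from 125865271 to 125938619. Its values were 21.9, 21.2 and 29.0 FPKM in the control libraries and 16.6, 20.2 and 20.2 FPKM in the SMA libraries. It was the only one of the 9 genes for which every SMA library lay below every control library, with a gap of about 1 FPKM between the nearest ones. Its log2 fold change was -0.32 (SE 0.15, limma adjusted p = 0.683), and the exact permutation p of 0.1 is the smallest that 3 libraries against 3 allow. Groups that did not overlap, with SMA lower, were found for 1140 of the 17088 genes tested (6.67%). After rescaling the libraries to the same total, Ugt8a had a log2 fold change of -0.30 and its groups overlapped.

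The 12 genes of galactolipid synthesis and turnover around Ugt8a had a median log2 fold change of -0.06 (-0.13 without control replicate 2), and all genes tested of 0.04. By limma, 0 of the 12 were lower and 1 was higher at an unadjusted p under 0.05, where 2.39% and 3.40% of all genes tested were. That gene was Kdsr, which acts early in ceramide synthesis, at 5.53, 6.71 and 5.71 FPKM in the control libraries and 7.15, 7.76 and 7.49 FPKM in the SMA libraries (log2 fold change 0.28, SE 0.11, limma adjusted p = 0.683). Its groups did not overlap, with SMA higher, as for 10.3% of all genes tested. The most abundant of the list were Degs1, Cers2 and Gltp, at means of 33.1, 25.0 and 15.4 FPKM.

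Mal, a proteolipid that sorts lipid-rich membrane to myelin in oligodendrocytes and Schwann cells, lies on chromosome 2 from 127633226 to 127656695. It was at 8.51, 8.79 and 11.3 FPKM in the control libraries and 9.17, 6.82 and 4.26 FPKM in the SMA libraries. Mal was the only member that was lowest in SMA replicate 3, and SMA replicate 1, the lowest library for 7 of the others, was here above control replicates 1 and 2. The log2 fold change was -0.48 (SE 0.25, limma adjusted p = 0.683; exact permutation p = 0.3), the largest in size among the 9, and it was -0.23 without SMA replicate 3 and -0.70 without SMA replicate 1 (SE 0.22, limma unadjusted p = 0.0219 and adjusted p = 0.851).

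SMA replicate 3 was also the library in which most genes of the Schwann cell list were lowest. Pmp22, a protein of peripheral myelin, was at 36.9, 31.2 and 47.2 FPKM in the control libraries and 39.8, 20.4 and 4.56 FPKM in the SMA libraries, and Prx, which defines myelinating Schwann cells, at 6.57, 7.47 and 13.1 FPKM in the control libraries and 11.5, 4.47 and 0.695 FPKM in the SMA libraries. In SMA replicate 3, Pmp2 was listed at 0, Egr2 was at 0.151 and Cldn19 at 0.148 FPKM, while Drp2, which other cells of the cord also express, was at 14.2 FPKM. In that same library Mbp was at 466 and Mag at 50.4 FPKM. None of the 10 Schwann cell genes had an unadjusted p under 0.05 in limma, where 2.39% of all genes tested were lower at that limit. Of the 10, 9 had a negative fold change, as had 7173 of the 17088 genes tested. The median over the 10 was -0.66, or -0.22 without SMA replicate 3. What part peripheral myelin has in the differences of Mal, Mbp, Mag, Cnp and Ugt8a between libraries was not tested.

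**Figure D2:**
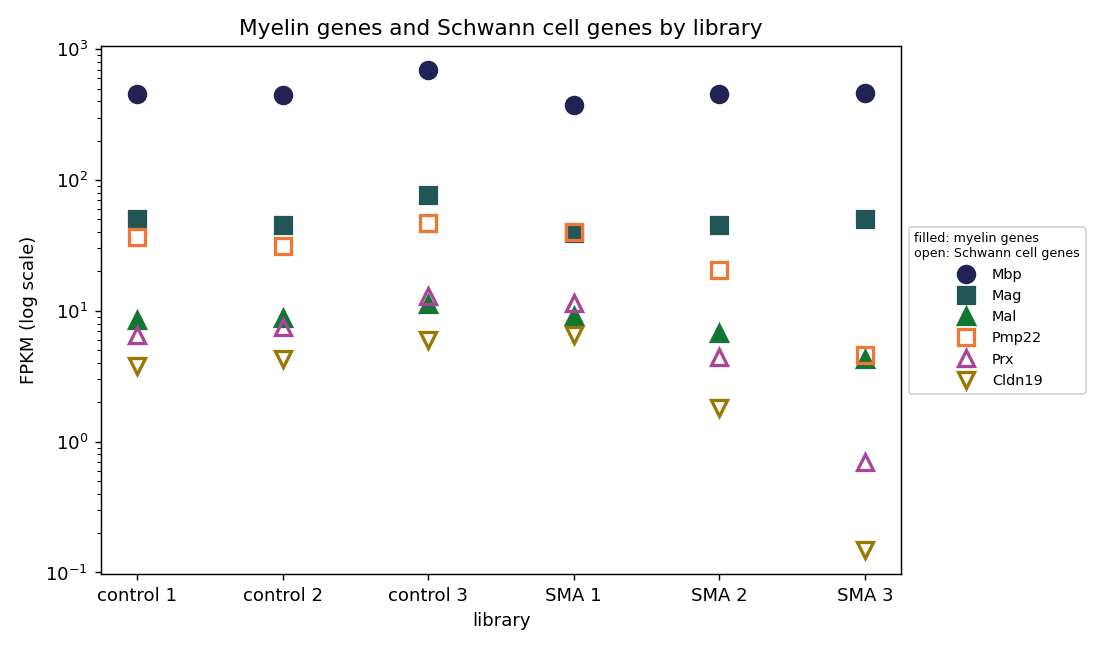
FPKM on a log axis of 3 myelin genes (filled) and 3 Schwann cell genes (open) in each of the 6 libraries. In SMA replicate 3 Prx is at 0.695 FPKM and Mbp at 466 FPKM, and Mal is at its lowest value, 4.26 FPKM.

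Myrf lies on chromosome 19 from 10208272 to 10240748. It was at 7.32, 10.4 and 10.9 FPKM in the control libraries and 7.83, 9.13 and 8.98 FPKM in the SMA libraries. Control replicate 1 was the lowest library and control replicates 2 and 3 the highest, so that all SMA libraries lay within the range of the controls. Its log2 fold change of -0.11 (SE 0.16, limma adjusted p = 0.785; exact permutation p = 0.6) was the smallest in size among the 9. Sox10, its partner, was at 12.1, 11.9 and 14.1 FPKM in the control libraries and 13.2, 11.6 and 12.8 FPKM in the SMA libraries.

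Of 14 regulators that promote oligodendrocyte differentiation, 1 was lower and 0 were higher at an unadjusted p under 0.05 in limma, where 2.39% and 3.40% of all genes tested were, with a median log2 fold change of -0.01, or -0.055 without control replicate 2. The one was Tcf7l2, an effector of Wnt signalling that marks newly formed oligodendrocytes, at 7.07, 8.0 and 6.90 FPKM in the control libraries and 4.61, 4.90 and 5.15 FPKM in the SMA libraries. Every SMA library was below every control library by more than the spread within either group. The log2 fold change was -0.50 (SE 0.10, limma unadjusted p = 0.00232 and adjusted p = 0.683), and -0.44 without control replicate 2 (limma adjusted p = 0.300). Tcf7l2 is also expressed by other cells. Without control replicate 2, Sox8 (log2 fold change -0.19) and Nkx6-2 (-0.57) also had an unadjusted p under 0.05 in limma, where 5.20% of all genes tested were lower at that limit, while with all 6 libraries their fold changes were -0.01 and -0.38. The most abundant of the list, Olig1, Zeb2 and Smarca4, had means of 58.3, 53.4 and 28.5 FPKM.

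Of 9 regulators that hold differentiation back, 2 were lower at an unadjusted p under 0.05 in limma, as were 2.39% of all genes tested, and 0 were higher. The median log2 fold change was 0.01, and -0.16 without control replicate 2. Sox6, which keeps precursors immature, was at 21.3, 28.4 and 19.9 FPKM in the control libraries and 15.3, 16.5 and 13.9 FPKM in the SMA libraries (log2 fold change -0.56, SE 0.15, limma adjusted p = 0.683). Id2, an inhibitor of basic helix-loop-helix factors, was at 37.6, 48.8 and 34.1 FPKM in the control libraries and 29.1, 30.8 and 28.7 FPKM in the SMA libraries (log2 fold change -0.42, SE 0.14, limma adjusted p = 0.683). Both were highest in control replicate 2, and without it their groups still did not overlap, at -0.41 and -0.27. Id4 and Gpr17, also of this list and among its 3 most abundant genes with Id2, had means of 49.8 and 45.1 FPKM and overlapping groups. Sox6, Id2 and Id4 are also made by cells outside the lineage, such as neurons and astrocytes, and the values do not say which cells differ.

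No member was called by limma at an adjusted p under 0.05, and neither was any of the 17088 genes tested (0%); the smallest adjusted p was 0.683. At an unadjusted p under 0.05 in limma, 409 genes were lower (2.39%) and 581 higher in SMA, and 0 of the 9 members were among them. Of the 8 other genes described in this report as lower or higher at that limit with all 6 libraries, Tcf7l2 and Sox6 were under it whichever library was left out, and Tmem88b, Id2, Gjc3, Kdsr, Aldoc and Rtn4rl2 in 3, 3, 2, 1, 2 and 2 of 6 cases. All 9 members had a negative fold change, where 7173 of all genes tested did, and their median was -0.29 against 0.04 over all genes tested. Without control replicate 2, 3 of the 9 members, Cnp, Mag and Ugt8a, were lower at an unadjusted p under 0.05 in limma, where 862 of 16574 genes were (5.20%). The same 3 had groups that did not overlap, which held for 13.9% of genes in that direction. In that comparison 2 genes (0.0121%), neither of them a member, had an adjusted p under 0.05 from limma: Snora74a and Rpph1, both small noncoding RNAs, both higher in SMA and named here after their values were seen.

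For the members other than Mal, the differences were smaller in size without control replicate 3 and without SMA replicate 1. In control replicate 3 all 9 members were highest, as were 17.5% of all genes tested. SMA replicate 1 was the lowest library for 7 members, as it was for 6.99% of all genes tested (15.75% when control replicate 2, the lowest for 44.9%, is set aside), and control replicate 1 and SMA replicate 3 were the lowest for Myrf and Mal. The geometric mean of the 9 genes was 29.6, 29.4 and 44.5 FPKM in the control libraries and 24.3, 29.5 and 29.1 FPKM in the SMA libraries. Control replicates 1 and 2 and SMA replicates 2 and 3 were thus within 1 FPKM of each other. Without control replicate 3 the median log2 fold change over the members was -0.07, and without SMA replicate 1 it was -0.14. Over the 5 libraries other than control replicate 2, the coefficient of variation was between 13.3% for Cnp and 42.4% for Mog, and its median over the 10057 genes averaging 5 FPKM or more was 7.90%.

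**Figure D3:**
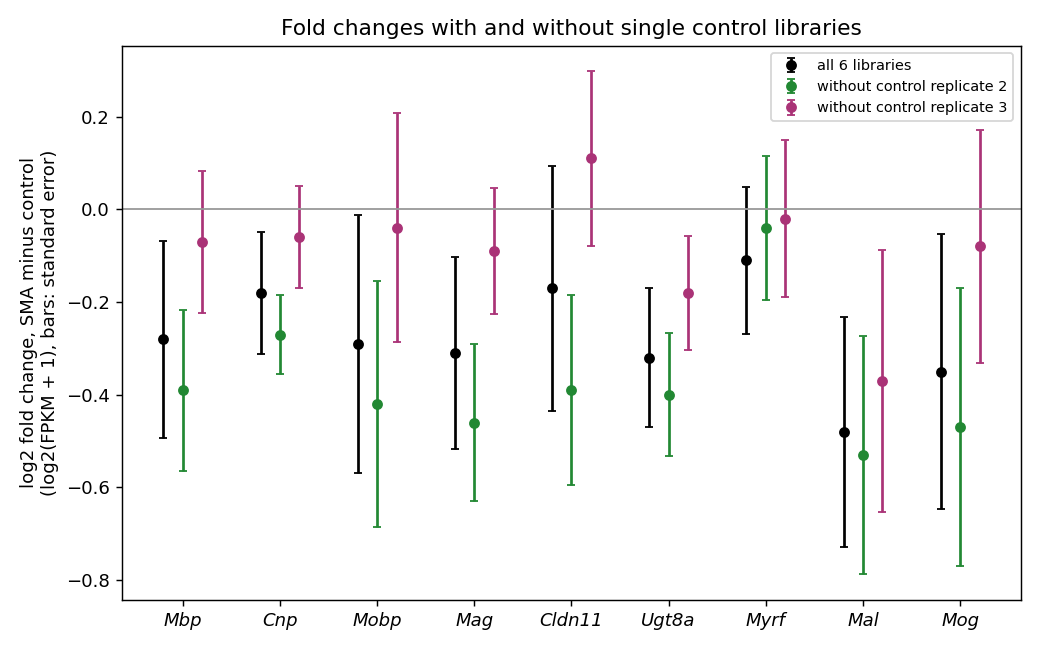
Log2 fold change of SMA against control, on log2(FPKM + 1), for each of the 9 genes from limma with all 6 libraries, without control replicate 2 and without control replicate 3; bars are standard errors. Without control replicate 3 the values lie closer to 0, from -0.37 for Mal to 0.11 for Cldn11.

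The genes with the profile most like that of the members were found among 10280 other genes averaging 5 FPKM or more, by the root mean square difference of centred log2(FPKM + 1) over the 6 libraries. They were Adamts4 (difference 0.06), Gm21168 (0.06), Kank3 (0.07), Pigp (0.07) and Slco1c1 (0.09). Adamts4, a protease known as a marker of myelinating oligodendrocytes, was at 6.96, 7.21 and 12.1 FPKM in the control libraries and 6.12, 7.21 and 7.76 FPKM in the SMA libraries.

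Among 36 other myelin and oligodendrocyte genes, 32 were tested, 2 were lower at an unadjusted p under 0.05 in limma and 0 higher, and 6 had SMA libraries below all controls, where 2.39% and 6.67% of all genes tested did. Their median log2 fold change was -0.14, and -0.25 without control replicate 2. Tmem88b was at 6.68, 8.14 and 9.39 FPKM in the control libraries and 4.53, 6.33 and 5.61 FPKM in the SMA libraries (log2 fold change -0.48, SE 0.16, limma adjusted p = 0.683). Gjc3, a connexin of myelinating glia, was at 9.79, 8.71 and 9.64 FPKM in the control libraries and 8.30, 6.25 and 4.88 FPKM in the SMA libraries (log2 fold change -0.50, SE 0.18, limma adjusted p = 0.683). Like Mal, Gjc3 was lowest in SMA replicate 3, and without that library it was at -0.34. Tmem88b was then at -0.50 (limma unadjusted p = 0.0512), and 0 genes of the list were lower at an unadjusted p under 0.05 in limma. The other 4 with no overlap were Cd9, Car2, Gsn and Gjb1. Without control replicate 2, 6 of 31 genes were lower at an unadjusted p under 0.05 in limma, where 5.20% of all genes tested were, those with the smallest p being Efhd1 (log2 fold change -0.67), Pllp (-0.35) and Gjb1 (-0.49).

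Some genes of this list were far above the others in control replicate 2, the library with hepatocyte genes. Trf, which encodes transferrin and is made by both liver and oligodendrocytes, was at 4903 FPKM there and between 12.3 and 24.6 FPKM elsewhere, and Gjb1 at 79.4 against 1.59 to 3.16 FPKM. The 9 members showed no such excess, with Mbp, Mobp, Mag, Ugt8a, Mal and Mog in control replicate 2 within 10% of control replicate 1, Cnp and Cldn11 below that and Myrf above it. At the other end, 3 genes of this list were barely present, and they are named here after their values were seen. Opalin was between 0.0304 and 0.163 FPKM, and Klk6 and Ninj2 were each listed at 0 in 4 of 6 libraries.

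Genes of earlier stages of the lineage were measured beside the members. For 14 genes of precursors and committed precursors, the geometric mean was 16.2, 13.8 and 18.0 FPKM in the control libraries and 15.6, 16.0 and 16.9 FPKM in the SMA libraries. At an unadjusted p under 0.05 in limma, 0 of the 14 were lower or higher, and the median log2 fold change was 0.06. It turned to -0.05 without control replicate 2, where 5 of the 14 had SMA libraries below all controls, as did 13.9% of all genes tested. Without control replicate 2, Pdgfra (log2 fold change -0.17) and Enpp6 (-0.26), an enzyme of newly formed oligodendrocytes, were lower at an unadjusted p under 0.05 in limma, as were 5.20% of all genes tested. With all 6 libraries Pdgfra and Enpp6 were at -0.02 and -0.18. The most abundant of the list were Ptprz1, Bcan and Cspg5, at means of 106, 95.4 and 75.5 FPKM. The ratio of the geometric mean of the 9 members to that of the precursor genes was 1.83, 2.14 and 2.48 in the control libraries and 1.56, 1.85 and 1.72 in the SMA libraries. SMA replicate 2 was above control replicate 1, so this ratio overlapped between the groups. As single genes divided by the precursor list, 3 of the 9 members, Cnp, Mag and Ugt8a, were lower without overlap, as were 4.26% of all genes tested. Neither of 2 other ratios overlapped. Divided by the geometric mean of Sox10, Olig1 and Olig2, the members were at 1.23, 1.46 and 1.62 in the control libraries and 1.00, 1.19 and 1.18 in the SMA libraries, and divided by the neuron list at 0.353, 0.617 and 0.520 against 0.289, 0.325 and 0.318. After these divisions 5.02% and 18.7% of all genes tested were lower without overlap, and in both cases 4 of the 9 members, Mbp, Cnp, Mag and Ugt8a. Divided by Sox10 alone, 2 of the 9 were, Ugt8a and Mal, and 3.96% of all genes. Whether members and precursor genes differ in their response was not tested.

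**Figure D4:**
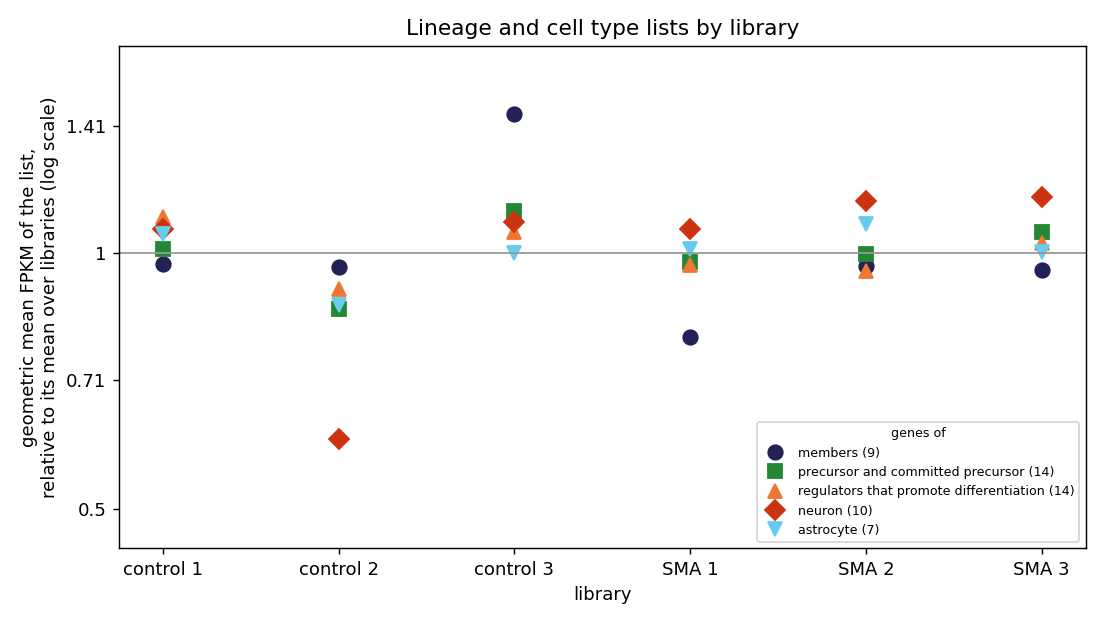
Geometric mean FPKM of 5 gene lists in the 6 libraries, divided by its mean over the libraries (log axis); numbers in brackets are genes per list. The 9 members stand out above the 4 other lists shown in control replicate 3 and below them in SMA replicate 1, and the neuron genes are low in control replicate 2.

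The partners of myelin on the axon were measured as well. None of 8 genes of the axonal side, such as Cntn1 and Ank3, had an unadjusted p under 0.05 in limma, with a median log2 fold change of 0.19 with all 6 libraries and -0.01 without control replicate 2. Of the 8 receptors for Mag and other inhibitors in myelin, 7 were tested, with a median of 0.17, or 0.02 without control replicate 2. The 1 higher at an unadjusted p under 0.05 in limma was Rtn4rl2, a receptor for Mag, where 3.40% of all genes tested were higher at that limit. Rtn4rl2 was at 1.04, 0.297 and 1.06 FPKM in the control libraries and 1.48, 1.39 and 2.19 FPKM in the SMA libraries (log2 fold change 0.60, SE 0.24, limma adjusted p = 0.683). With its lowest library, control replicate 2, left out, the fold change was 0.38 and the unadjusted p in limma 0.0598, so that none of the 7 was under 0.05. Lrp1, Lingo1 and Rtn4r were the most abundant receptors, at means of 87.6, 31.5 and 13.1 FPKM.

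Axonal genes and several of these receptors are made by neurons, and the part of the neuron content in both medians was not tested. For the neuron list the geometric mean was 84.0, 47.6 and 85.6 FPKM in the control libraries and 84.1, 90.7 and 91.6 FPKM in the SMA libraries. The neuron list had 0 genes at an unadjusted p under 0.05 in limma and 5 of 10 higher without overlap (10.3% of all genes tested) with all 6 libraries, and without control replicate 2 it had 3 higher at that limit, as were 5.27% of all genes tested: Rbfox3 (log2 fold change 0.21), Slc32a1 (0.18) and Syt1 (0.15). When the libraries were scaled to the neuron list, the median log2 fold change moved to -0.25 over all genes and to -0.63 over the members, -0.38 relative to all genes. Under this scaling 6 of the 9 members were lower at an unadjusted p under 0.05 in limma, where 3.28% of genes were, and 4 had groups that did not overlap, where 18.6% did.

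Astrocyte and microglia genes gave the level of other glia. Of 7 astrocyte genes, Aldoc was higher at an unadjusted p under 0.05 in limma (log2 fold change 0.48, SE 0.19, adjusted p = 0.683), as were 3.40% of all genes tested. Aldoc was at 0.29 without control replicate 2, still at an unadjusted p under 0.05 in limma, and there Aqp4 was lower (-0.24). In that comparison 5.27% of all genes tested were higher and 5.20% lower at that limit. The median log2 fold change was 0.14 for the astrocyte list, or 0.03 without that library, and 0.00 or -0.04 for 6 microglia genes, none of which had an unadjusted p under 0.05 in limma. Of 7 erythroid genes, all had negative fold changes with a median of -1.53 (-0.29 without control replicate 2), where 7173 of the 17088 genes tested were negative. None of the 7 had an unadjusted p under 0.05 in limma with all 6 libraries. Their summed level was 18820 FPKM in control replicate 2 and between 1115 and 1861 FPKM in the other libraries, with Hbb-bs the most abundant. The 14 hepatocyte genes had a median of -2.41, and the 13 of them tested without control replicate 2 had a median of 0.17 there.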

How the data were processed

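Bulk-seq of spinal cord from 3 control and 3 SMA libraries was analysed. The deposited values are FPKM per gene, which the authors obtained with Cufflinks after alignment by HISAT2 from strand-specific libraries depleted of ribosomal RNA. The submitters' processing notes name the build mm10; versions are not given in the sources used here. A gene absent from a library was set to 0. Libraries were grouped by their labels. Values were compared as log2(FPKM + 1) for genes averaging 0.5 FPKM or more with limma 3.58.1 in R 4.3.3 (lmFit, eBayes with a trend, no covariate, two-sided p), with Benjamini-Hochberg adjustment over all genes tested. The procedure was tested on simulated data with no outlying library and with larger differences than those of the members. That test does not cover differences of the size seen here. Single members were compared by an exact two-sided permutation test. The study's own test on read counts was not used, since FPKM are not counts. FPKM are shares of a library, so a library with much RNA of other tissue can have lower values for cord genes, which was not tested.

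The members and lists were chosen with earlier results of these data known. Named are the 9 members, Smn1, of each list the 3 genes with the highest mean and up to 3 with the smallest unadjusted p under 0.05 in limma, with all 6 libraries or without control replicate 2, and the 5 genes with the most similar profile (a few of these are not reported here). The other list genes named were chosen for their role or after their values were seen. Alternatives were a pseudocount of 0.1, no filter or a minimum mean of 1 FPKM, other scalings (same total, quantile, median ratio, neuron list), a block for replicate number, robust eBayes and leaving out each library. Leaving out pairs of libraries was chosen after seeing the data. Promoter sequences are from RefSeq (GRCm38.p6) and gene spans from GENCODE M21.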

Additional observations from a re-analysis of the deposited data

How the results depend on the processing

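No member had an adjusted p under 0.05 from limma under any of the 17 alternatives, and 151 of 153 fold changes of members kept their direction. The exceptions were Cldn11, and Myrf at 0.21 without control replicates 2 and 3. Changing the filter, robust eBayes and the replicate block cannot alter these fold changes, so part of the count was fixed in advance. The members were also measured in the same libraries, so the fold changes counted are not independent of each other. When single libraries were left out, log2 fold changes ranged for Cldn11 from -0.39 to 0.11, for Smn1 from -0.20 to 0.01, for Sox8 from -0.19 to 0.11 and for Pdgfra from -0.17 to 0.06. Sox8 was at 0.01 after rescaling to the same total and Kdsr at -0.03 after scaling to the neuron list.

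Leaving out each library gave a median over the members between -0.40 (control replicate 2 left out) and -0.07 (control replicate 3 left out). Between 0 and 3 members were lower at an unadjusted p under 0.05 in limma, as were 0.731% to 5.20% of genes. Lower without overlap were 1 to 3 members, and 8.74% to 13.9% of genes. These settings gave 125 to 862 lower and 214 to 1040 higher genes at an unadjusted p under 0.05, and 0 to 2 at an adjusted p under 0.05 (limma). Scaling to the neuron list gave a median of -0.63, with 6 members lower at an unadjusted p under 0.05, 4 without overlap (3.28% and 18.6% of genes) and 19 genes higher. Median ratio scaling gave 1 member lower at an unadjusted p under 0.05 (3.30% of genes) and 3 without overlap (8.88%), quantile normalization 1 at an unadjusted p under 0.05 (1.97%), and rescaling to the same total 0 without overlap. Without the filter, 882 genes were higher.

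Chosen after seeing the data, leaving out control replicate 2 and SMA replicate 3 gave a median of -0.44, 3 members at an unadjusted p under 0.05 (3.22% of genes), 4 without overlap (17.7%) and 1 gene at an adjusted p under 0.05 in limma (Snora74a). Leaving out control replicates 2 and 3 gave -0.09, 3 members lower without overlap (33.1% of genes) and 1 higher, 1368 genes lower and 1363 higher, and 3 at an adjusted p under 0.05 in limma (Hbb-bh1, Pisd-ps1 and Gm27998), with the lone control assumed to vary like the SMA libraries.

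With the replicate block, 303 genes were lower and 356 higher, and no gene or member passed. Same-numbered libraries did not deviate together (correlations -0.04, 0.02 and 0.08). The causes of these changes were not tested. With 3 libraries a group and unknown depth, small differences cannot be resolved.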
